A study of Macaca mulatta with 14 samples.

Results

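Mature testis of the rhesus macaque was compared with immature testis at the level of single miRNA names. The mature stage held 4 animals, aged 2355, 2570, 8104 and 9518 days. The immature stage held 5 animals, aged 16, 20, 215, 471 and 739 days. The members were chosen by age alone and made up 10 of the 14 libraries and 9 of the 12 animals of a time course of testis small RNA. The animal of 16 days had 2 technical libraries, which were averaged on the log scale and counted as 1 animal. The other 3 animals, of peripubertal age (1135 to 1487 days), were not part of the difference between the stages. They entered the shared estimate of spread, the choice of names to test and the median scaling described below.

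All animals were untreated males described as healthy. The testes were taken after sudden death and frozen, total RNA was extracted, and its small fraction was sequenced. The labels name the species as Macaca mulatta, although their free text speaks of a human individual, and the miRNA names in the table carry the human prefix. The labels give ages but no measure of puberty, so immature and mature are names for age ranges. Whole testis was used, so fewer cells of a type and less RNA per cell cannot be told apart in any value below.

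A miRNA is a short RNA that guides a silencing complex to partly matching messenger RNAs. One hairpin precursor can give a miRNA from either arm, and a star in the older naming marks the arm that was usually rarer. In the infant testis the seminiferous cords hold mostly Sertoli cells and spermatogonia, surrounded by peritubular and interstitial cells. After puberty most cells are germ cells, including meiotic spermatocytes and haploid spermatids, so the makeup of the organ differs between the stages. Such a change in makeup cannot be separated here from a change within a cell type.

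The deposited values are RPM, read counts relative to the size of the library, and all of them came out as whole reads within a tolerance of 0.01 read. The library totals recovered in this way ran from 4381953 to 5253505 reads in the immature stage and from 3369245 to 5620503 reads in the mature stage. A count of 0 allows up to 3 reads, which is 0.534 to 0.890 RPM across the libraries. This limit covers counting error only, because reads amplified without molecular identifiers are not independent molecules. The libraries numbered 1 to 7 held the immature animals of 16, 20 and 471 days and the mature animals of 2570 and 9518 days. Those numbered 8 to 14 held the animals of 16, 215 and 739 days and of 2355 and 8104 days. Of the 9 animals compared, each other than that of 16 days gave 1 library. The peripubertal animal of 1487 days gave 2 technical libraries, which were averaged alike. The p-values measure the spread between animals.

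The share of each library that fell on listed miRNAs differed widely between animals. It was 61.2%, 79.3%, 46.2%, 16.1% and 27.7% in the immature animals of 16, 20, 215, 471 and 739 days. It was 33.7%, 14.9%, 9.00% and 18.1% in the mature animals of 2355, 2570, 8104 and 9518 days. The mean was 46.1% ± 25.3 (SD, n = 5) in the immature stage and 18.9% ± 10.5 (SD, n = 4) in the mature stage, with overlapping ranges (exact two-sided permutation test, p = 0.0952). Because RPM divides by the library total, this share moves all names together. Each result is therefore given on the deposited scale and after median scaling, which brings the typical name to the same level in every library.

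Of 538 miRNA names, 322 reached 1 RPM in at least 3 of the 12 animals and were tested, and 216 did not. A name is described as called, or as having risen or fallen, where limma's moderated test on log2(RPM + 1) gave a Benjamini-Hochberg adjusted p under 0.05 over the 322 names. All log2 fold changes are mature minus immature on that scale, which understates the change of names near 0.

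On the deposited scale 34 names rose (10.6% of those tested) and 85 fell (26.4%). After median scaling 76 rose (23.6%) and 63 fell (19.6%). Rises thus made up 28.6% of the calls on the deposited scale and 54.7% after scaling. The median log2 fold change over the tested names was −0.76 on the deposited scale and 0.10 after scaling, and changes of single names are to be read against these 2 values. Called on both scales and in the same direction were 34 higher (10.6%) and 62 lower (19.3%) names, and no name was called in opposite directions. On the deposited scale all 4 mature animals stood above all 5 immature animals for 28 names (8.7%) and below them for 20 names (6.21%). After scaling these counts were 56 (17.4%) and 48 (14.9%).

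The lower calls leaned on particular animals. On the deposited scale 30 names (9.32%) fell without the animal of 8104 days, and 39.8% of the names did without that of 471 days. These 2 animals had the lowest listed share of their stage. Without the animal of 16, 20, 2570 or 9518 days the count was 42, 56, 56 or 49. Without the 2 neonates, of 16 and 20 days, 26 names rose and 17 fell on the deposited scale, of which 24 and 16 were among the calls above. After scaling 61 rose and 41 fell without the neonates, and 58 and 39 of these were shared. Within the libraries numbered 1 to 7 the deposited scale gave 12 higher and 0 lower calls by limma, with 57 lower and 28 higher names at an unadjusted p under 0.05, and within those numbered 8 to 14 it gave 23 higher and 40 lower calls. All 119 calls on the deposited scale and all 139 after scaling had the same sign within both library sets, which share the animal of 16 days. The calls were chosen on these same animals, so this agreement of sign was largely given in advance and is no replication. A 3rd scaling, to the sum of listed reads, put the median at 0.33 and turned no sign among the 96 names called on both scales, of which 85 were called again. Of the calls of names described singly, 17 of 37 on the deposited scale and 10 of 54 after scaling were lost without the neonates. Count tests on the recovered reads called 34 higher and 92 lower names with edgeR on library totals, 83 and 68 with edgeR and TMM, and 79 and 76 with DESeq2.

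**Figure D1:**
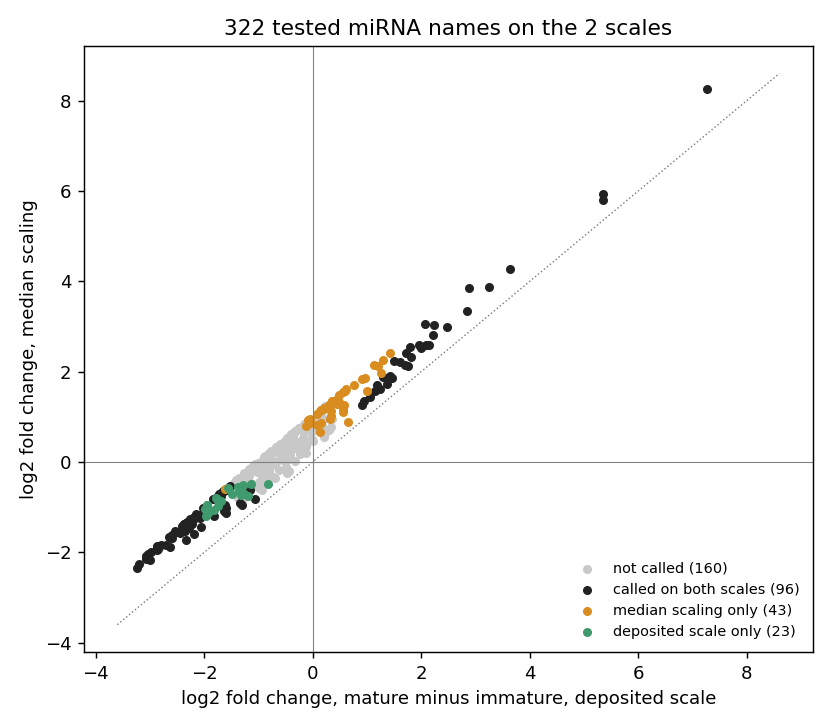
Log2 fold change (mature minus immature) of the 322 tested names on the deposited scale (x axis) and after median scaling (y axis), 1 point a name, with the dotted line marking equal values. Black points are the 96 names called on both scales, orange points the 43 called after median scaling only, green points the 23 called on the deposited scale only and grey points the 160 not called. The points lie above the dotted line.

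The miR-34 and miR-449 family held the 3 highest log2 fold changes of the comparison. The more abundant arms of its hairpins share a targeting sequence. The family is known from meiotic and later male germ cells and from multiciliated epithelia, where miR-34b/c and miR-449 can stand in for each other. All 6 tested names of miR-34b, miR-34c, miR-449a and miR-449b rose on both scales, beside 10.6% and 23.6% of all tested names. Except for miR-34c-5p, 5 of the 6 passed the filter on low values only through the older animals. That filter favoured a rise, so these 5 calls are no separate support for one. The median log2 fold change of the 6, given as a description, was 4.09 on the deposited scale and 4.57 after scaling.

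miR-34c-5p is the abundant product of the miR-34b/c hairpins. It stood at 145.2, 49.9, 52.7, 985 and 121 RPM in the immature animals of 16, 20, 215, 471 and 739 days. In the mature animals of 2355, 2570, 8104 and 9518 days it stood at 37698, 15138, 21515 and 16320 RPM. The groups did not overlap, and the highest immature animal, that of 471 days, was still far below the lowest mature one. The means were 270.8 ± 401 RPM (SD, n = 5) and 22668 ± 10396 RPM (SD, n = 4). The log2 fold change was 7.27 ± 0.95 (SE; limma, adjusted p = 1.1e-05) on the deposited scale and 8.26 ± 1.65 (adjusted p = 0.00346) after scaling. Leaving out 1 animal moved the deposited value between 6.91 (without the animal of 20 days) and 7.98 (without that of 471 days). Within the 2 library sets it was 6.31 and 8.20. After scaling, leaving out 1 animal moved it between 7.63 and 9.34, and miR-34c-5p kept its call each time. In the mature stage miR-34c-5p was among the 5 names with the highest mean RPM.

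miR-449a comes from a separate hairpin in a host gene active in ciliated cells. It stood at 0.970, 0.761, 0.198, 3.64 and 0 RPM in the immature animals in order of age. The mature animals had 157, 43.1, 58.7 and 69.4 RPM. Each mature animal was above every immature one, of which 4 were under 1 RPM. miR-449a rose by 5.35 ± 0.67 on the log2 scale (SE; adjusted p = 1.12e-06) and by 5.94 ± 0.82 after scaling.

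miR-34b*, from the other arm of the miR-34b hairpin, followed the same pattern. It was at 0.431, 0, 0, 2.30 and 0.190 RPM in the immature animals and at 121, 33.6, 57.6 and 42.8 RPM in the mature animals. It rose by 5.34 ± 0.67 on the log2 scale (SE; adjusted p = 1.35e-06), and by 5.80 ± 0.83 after scaling. As for miR-34c-5p and miR-449a, the animal of 471 days was the highest of the immature stage.

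The rarer names of the family were lower in level but separated in the same way. miR-34b was at 0 to 0.383 RPM in the immature animals and at 5.34 to 9.43 RPM in the mature ones, and its log2 fold change was 2.83. miR-449b went from 0 to 0.539 RPM in the immature stage to 0.776 to 6.23 RPM in the mature stage, with a log2 fold change of 1.42. miR-34c-3p was at most 0.383 RPM in the immature stage and 1.30 to 2.37 RPM in the mature stage. Its log2 fold change was 1.37, on a scale where the added 1 RPM takes up much of so low a value.

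**Figure D2:**
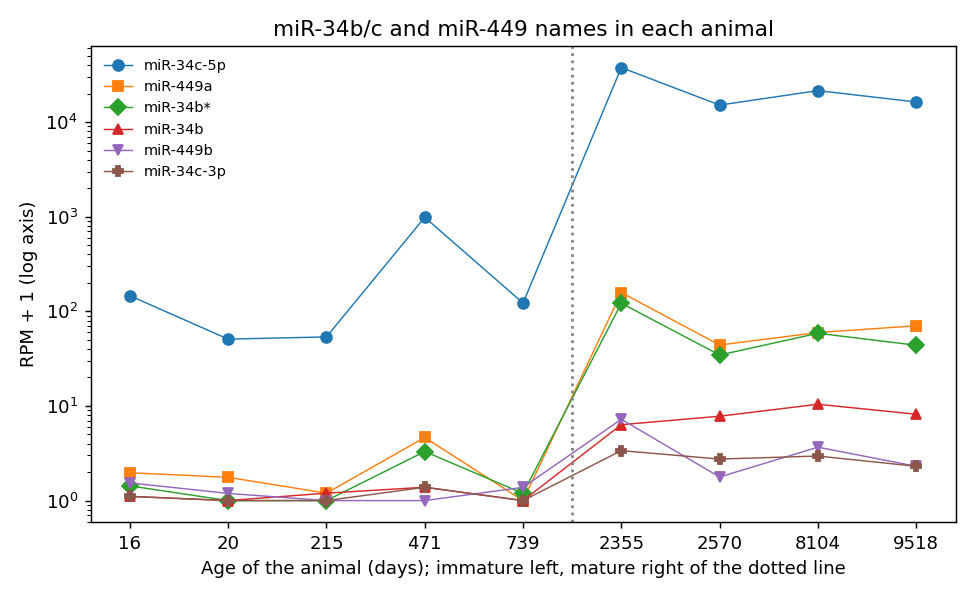
RPM + 1 (log axis) of the 6 tested miR-34b/c and miR-449 names in each of the 9 animals, ordered by age in days, with the immature animals left of the dotted line and the mature animals right of it. For all 6 names every mature animal lies above every immature animal, and the animal of 471 days has the highest immature value of miR-34c-5p, 985 RPM.

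miR-34a, the relative induced by p53 in many tissues, was much rarer. It was at 1.02, 2.47, 0.198, 0.959 and 0.190 RPM in the immature animals and at 5.94, 2.72, 1.25 and 1.96 RPM in the mature animals. The groups overlapped on the deposited scale, where its log2 fold change was 0.996 (adjusted p = 0.0671). Without the neonates miR-34a was called on that scale, with a change of 1.36 (limma, adjusted p = 0.0269). After scaling miR-34a rose by 1.56 (adjusted p = 0.00191). Its other arm, miR-34a*, rose after scaling by 1.11, a call that was lost without the animal of 16, 215, 2570 or 9518 days (highest adjusted p without 1 animal, 0.0677). Both names were near the limit of 1 RPM and passed the filter only through the older animals, so the filter favoured a rise.

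Most of the other rises on the deposited scale came from the chromosome 19 miRNA cluster, C19MC. This primate cluster of many related hairpins is imprinted, expressed from the paternal copy, and best known from placenta. The table lists 51 of its names and 26 were tested. Of these 22 rose on the deposited scale and 25 after scaling, beside 10.6% and 23.6% of all tested names. On either scale 0 of the 26 fell by limma, edgeR or DESeq2 or at an unadjusted p under 0.05. Their median log2 fold change was 1.38 and 2.05. Of the 26, miR-520d-5p and miR-527 had the same stage means and total of reads and may be 1 measurement. The untested miR-519e and miR-520f also matched, so the sum over the cluster may count some reads repeatedly. For 16 of the 26 fewer than 3 immature animals reached 1 RPM, so these passed the filter through the older animals. The filter thus favoured a rise of these 16, and their calls are no separate support for one.

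The summed RPM of the whole cluster does not depend on that filter. It was 46.0, 44.0, 40.8, 57.9 and 95.2 RPM in the immature animals in order of age. In the mature animals it was 436, 259, 194.6 and 418 RPM. The lowest mature animal, that of 8104 days, was above the highest immature animal, that of 739 days. Leaving out 1 animal left 16 to 23 deposited calls, and without the neonates 12 of the 26 names rose. After scaling 21 rose without them. Of all tested names 8.07% rose without the neonates on the deposited scale and 18.9% after scaling.

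miR-1323 was the most abundant of the cluster in these testes. It stood at 18.9, 18.8, 11.1, 22.05 and 27.4 RPM in the immature animals and at 222.01, 108, 86.3 and 221.1 RPM in the mature animals. miR-1323 rose by 2.89 ± 0.60 on the log2 scale (SE; adjusted p = 0.000651), and by 3.84 ± 0.54 after scaling. The immature animals lay in a narrow band well below the mature ones.

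miR-520a-3p shares its targeting sequence with the embryonic miR-302 and miR-372 miRNAs. It was at 1.06, 0.952, 0.396, 1.92 and 2.29 RPM in the immature animals and at 16.3, 18.6, 12.6 and 41.97 RPM in the mature animals. The rise was 3.25 ± 0.54 on the log2 scale (SE; adjusted p = 4.28e-05). miR-515-5p, another member of the cluster, was at 0.571 to 2.88 RPM and at 5.69 to 29.4 RPM and rose by 2.22 ± 0.52 on the log2 scale (SE; adjusted p = 0.00201). The groups did not overlap for either name. miR-516b, next in abundance, was at 9.20 to 24.6 RPM and at 27.6 to 35.2 RPM, and it rose after scaling only (log2 fold change 2.12, against 1.196 with an adjusted p of 0.111).

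The miR-371 to miR-373 hairpins lie beside C19MC and, with the miR-302 cluster, mark pluripotent and early germ cells. Only 2 of their 9 listed names were tested. miR-371-5p was at 38.5 to 117 RPM in the immature animals and at 107 to 293 RPM in the mature ones. miR-372 was at 28.2 to 104 RPM and at 78.1 to 239 RPM. Both ranges overlapped, the deposited log2 fold changes were 1.42 (adjusted p = 0.0627) and 1.29 (adjusted p = 0.0944), and both names rose after scaling, by 2.41 and 2.26. Without the neonates the scaled call of miR-372 was lost (log2 fold change 1.38, adjusted p = 0.0674).

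miR-375 is best known from pancreatic islets and other neuroendocrine cells. It was at 0.573, 0, 0.198, 0 and 0.190 RPM in the immature animals. The mature animals had 21.4, 8.15, 13.7 and 13.9 RPM. miR-375 rose by 3.63 ± 0.48 on the log2 scale (SE; adjusted p = 1.35e-06), and by 4.27 ± 0.53 after scaling. All immature values were within the limit that a count of 0 allows in the shallowest library. No immature animal reached 1 RPM, so miR-375 passed the filter only through the older animals. That filter favoured a rise, and the call is no separate support for one.

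The miR-200 family holds epithelial cells in their state by repressing ZEB1 and ZEB2. Of its 4 listed names miR-200a and miR-429, which share a transcript, were tested, and both rose on both scales. miR-200a was at 4.41, 2.86, 3.96, 5.37 and 4.57 RPM in the immature animals and at 55.5, 19.6, 15.1 and 17.6 RPM in the mature animals and rose by 2.24 ± 0.57 on the log2 scale (SE; adjusted p = 0.00414). miR-429 was at 0.0968 to 0.575 RPM and at 5.24 to 8.61 RPM and rose by 2.48 ± 0.40 (SE; adjusted p = 2.46e-05). It passed the filter on low values only through the older animals, so the filter favoured a rise and the call is no separate support for one. Neither name overlapped between the stages. The miR-888 cluster, which marks epididymal epithelium, summed to 0.192 to 0.571 RPM in the immature animals and 0 to 0.870 RPM in the mature ones, so these defining epididymal names were at or near 0 in both stages.

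miR-7 is processed from several hairpins and is most abundant in neuroendocrine cells and brain. It was at 45.5, 71.8, 42.8, 108 and 67.2 RPM in the immature animals and at 774, 193, 120.45 and 296 RPM in the mature animals. The animal of 8104 days was only a little above that of 471 days. miR-7 rose by 2.08 ± 0.62 on the log2 scale (SE; adjusted p = 0.0111) and by 3.06 ± 0.58 after scaling. Without the animal of 2355 days, the highest, the deposited value was 1.57 and the call held (highest adjusted p without 1 animal, 0.0395).

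A list of names from the imprinted DLK1-DIO3 region gave 34 of the 85 lower calls on the deposited scale. The miRNAs of this region lie in long noncoding RNAs made from the maternal copy and are abundant in embryo, placenta and brain. The list held 57 names of the table and 39 were tested. Of these 34 fell on the deposited scale and 27 after scaling, beside 26.4% and 19.6% of all tested names. On either scale 0 of the 39 rose by limma, edgeR or DESeq2 or at an unadjusted p under 0.05. Their median log2 fold change was −2.33 on the deposited scale and −1.42 after scaling, against −0.76 and 0.10 over all tested names. Scaled to the sum of listed reads, 24 fell and the median was −1.44. The list left out miR-369, which lies in the region among the hairpins from MIR379 to MIR656. Its arms miR-369-5p (−2.08) and miR-369-3p (−1.82) both fell on the deposited scale, and miR-369-5p fell after scaling (−1.25).

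The summed RPM of the 57 names on that list was 4253, 6371, 1519, 426 and 785 RPM in the immature animals in order of age. In the mature animals it was 684, 201, 142.7 and 254 RPM. The stages overlapped on the deposited scale, where the mature animal of 2355 days lay above the immature animal of 471 days. After scaling they did not, and the immature sums of 836 to 2174 stood above the mature sums of 337.3 to 549. The 2 neonates were the highest on both scales.

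Without the neonates 8 of the 39 names fell on the deposited scale, with a median of −1.29, and 17 fell after scaling, with a median of −0.89. Of all tested names 5.28% and 12.7% fell without them. Leaving out 1 animal gave 16 deposited calls (without that of 8104 days) to 39 (without that of 471 days), and 21 without that of 16 days. After scaling the range was 22 to 32. The direction was lower in each of these counts, and the medians within the 2 library sets were −2.83 and −2.05.

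miR-495 had the lowest log2 fold change of the region. It stood at 120.02, 153.2, 43.2, 8.44 and 30.1 RPM in the immature animals and at 6.83, 1.94, 3.91 and 4.57 RPM in the mature animals. It fell by 3.25 ± 0.71 on the log2 scale (SE; adjusted p = 0.0012), and by 2.34 ± 0.40 after scaling. The stages did not overlap, but the animal of 471 days was close to the highest mature animal. Without the animal of 471 days the deposited change was −3.83, and without that of 20 days it was −2.82.

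miR-136 is encoded opposite the imprinted retrotransposon-derived gene RTL1. It was at 59.8, 69.9, 23.6, 13.4 and 18.5 RPM in the immature animals and at 6.23, 4.66, 1.42 and 1.30 RPM in the mature animals. It fell by 3.01 ± 0.64 on the log2 scale (SE; adjusted p = 0.000878) and by 2.18 after scaling. miR-485-3p was at 61.1, 174, 32.7, 5.56 and 14.9 RPM and at 3.86, 2.52, 3.20 and 4.78 RPM, and it fell by 2.86 ± 0.80 (SE; adjusted p = 0.00862). The immature values of miR-485-3p spanned a wide range while the mature values lay close together. Without the neonates its scaled call was lost (log2 fold change −1.39, adjusted p = 0.0589).

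The most abundant names of the region overlapped between the stages. miR-127-3p, also encoded opposite RTL1, was at 73.8 to 935 RPM in the immature animals and at 14.2 to 141.9 RPM in the mature ones. miR-485-5p was at 113 to 693 RPM and at 28.3 to 189 RPM. miR-411 was at 56.7 to 860 RPM and at 18.9 to 65.0 RPM. Each fell on the deposited scale, by 2.60, 2.34 and 2.66, and after scaling, by 1.62, 1.35 and 1.67. The deposited calls of miR-127-3p (adjusted p = 0.0865) and miR-485-5p (adjusted p = 0.0547) were lost without the animal of 8104 days. Without the neonates miR-127-3p lost both calls (adjusted p = 0.147 deposited and 0.0758 scaled), miR-485-5p lost both (adjusted p = 0.142 and 0.0576) and miR-411 lost its deposited call (adjusted p = 0.054).

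**Figure D3:**
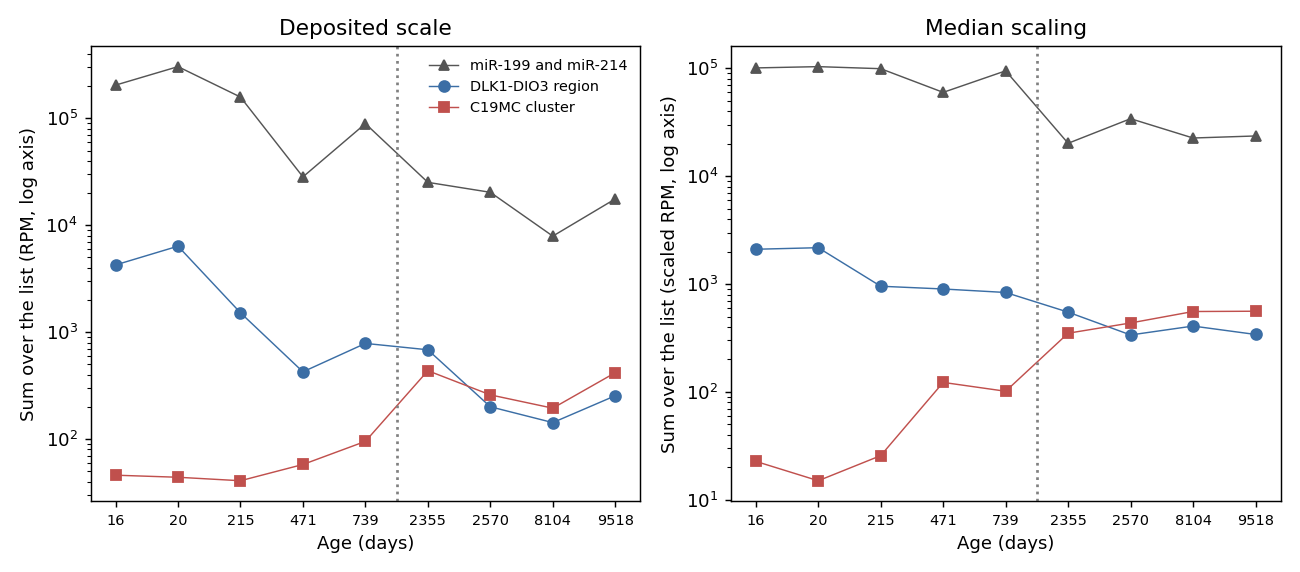
Summed values of all listed names of C19MC (squares), of the DLK1-DIO3 region (circles) and of miR-199 and miR-214 (triangles) in each of the 9 animals, in RPM (left) and after median scaling (right), on log axes, with the immature animals left of the dotted line. C19MC is higher in all 4 mature animals on both scales, and DLK1-DIO3, summed without miR-369, is separated after scaling only. Reads shared by miR-199a-3p and miR-199b-3p count in both.

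miR-199 and miR-214 are made from transcripts opposite dynamin genes and are typical of mesenchymal cells. All 5 tested names fell on the deposited scale and 4 fell after scaling, with medians of −2.88 and −1.87. Of all tested names 26.4% and 19.6% fell. miR-199a-3p stood at 101930, 151880, 78911, 14141 and 44523 RPM in the immature animals. In the mature animals it stood at 12559, 10142, 3948 and 8795 RPM. The stages did not overlap, although the animal of 471 days lay just above that of 2355 days. miR-199a-3p fell by 2.88 ± 0.65 on the log2 scale (SE; adjusted p = 0.00145), and by 1.87 ± 0.21 after scaling (adjusted p = 2.15e-05). miR-199b-3p had nearly the same reads in each library, so these 2 names are 1 measurement.

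The other arm, miR-199a-5p, was less abundant and moved alike. It was at 328.7, 378.99, 249, 57.1 and 135.6 RPM in the immature animals and at 41.6, 26.0, 10.1 and 25.7 RPM in the mature animals. It fell by 2.98 ± 0.65 (SE; adjusted p = 0.0012) and by 2.00 ± 0.25 after scaling. After scaling its immature values ran from 121 to 163 and its mature values from 28.99 to 43.7, so both stages were narrow. Without the neonates 3 of the 5 names of miR-199 and miR-214 fell on the deposited scale and 4 after scaling, beside 5.28% and 12.7% of all tested names. The deposited count was also 3 without the animal of 16 days or of 8104 days, where 13% and 9.32% of all tested names fell.

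The let-7 family promotes differentiation and is held down by LIN28 in early cells. It was abundant in both stages, and let-7f had the highest mean RPM of all names in each. let-7f stood at 192270, 240850, 147340, 51320 and 91327 RPM in the immature animals. In the mature animals it stood at 92334, 38642, 19683 and 52199 RPM. The stages overlapped on the deposited scale, where let-7f fell by 1.53 ± 0.60 (SE; adjusted p = 0.0438). After scaling it was lower in all mature animals, with a change of −0.52 ± 0.14 (SE; adjusted p = 0.00756). The scaled call held without each animal in turn (highest adjusted p, 0.0344), whereas the deposited call was lost without the animal of 16, 20, 215, 2570, 8104 or 9518 days (highest adjusted p, 0.170).

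Of 10 tested let-7 names 7 fell on each scale, with medians of −1.58 and −0.62, beside 26.4% and 19.6% of all tested names. let-7g and let-7a, the next in abundance, were not called. let-7g had log2 fold changes of −1.26 (adjusted p = 0.0894) and −0.25 (adjusted p = 0.239). let-7a had −1.35 (adjusted p = 0.0746) and −0.35 (adjusted p = 0.143). let-7c fell by 1.62 and, after scaling, by 0.62. Its deposited call was lost without the same 6 animals as that of let-7f (highest adjusted p, 0.162), and its scaled call without the animal of 16, 2570, 8104 or 9518 days (highest adjusted p, 0.0727). Without the animal of 8104 days 0 let-7 names were called on the deposited scale and 5 after scaling, beside 9.32% and 14.9% lower over all tested names. Leaving out the animal of 16 days left 1 deposited call, leaving out that of 20 or 2570 days left 2, and leaving out that of 215 or 9518 days left 3. Over all tested names these fits gave 13% to 18.3% lower. Without the neonates 0 let-7 names were called on the deposited scale and 4 after scaling, beside 5.28% and 12.7% lower over all tested names.

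The miR-181 family, known from lymphocyte development, split between its members. miR-181d was at 308, 362, 321.7, 185 and 292 RPM in the immature animals and at 92.009, 24.4, 12.99 and 46.1 RPM in the mature animals. It fell by 3.03 ± 0.70 (SE; adjusted p = 0.00179), and by 2.05 ± 0.49 after scaling. The immature animals lay close together, and none overlapped with the mature animals. miR-181c, from the same transcript, was at 37.2 to 59.4 RPM and at 2.31 to 22.6 RPM and fell by 2.42 and 1.52. Its scaled call was lost without the animal of 8104 days (adjusted p = 0.0506).

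The more abundant miR-181a and miR-181b overlapped between the stages. miR-181a was at 346 to 1590 RPM and at 99.6 to 418 RPM, with changes of −1.69 (adjusted p = 0.0392) and −0.69 (adjusted p = 0.0402). Its deposited call was lost without the animal of 16, 20, 215, 2570, 8104 or 9518 days (highest adjusted p, 0.155) and its scaled call without that of 16, 20, 471, 2355, 8104 or 9518 days (highest adjusted p, 0.110). miR-181b was not called, with changes of −1.26 (adjusted p = 0.123) and −0.26 (adjusted p = 0.553). In all 5 of the 7 family names fell on the deposited scale and 4 after scaling, beside 26.4% and 19.6% of all tested names. Without the neonates 2 and 2 fell, beside 5.28% and 12.7%. The deposited count was 3 without the animal of 16, 20, 215, 8104 or 9518 days, and the scaled count was 2 without that of 8104 days. Over all tested names these fits gave 9.32% to 18.3% lower on the deposited scale and 14.9% after scaling.

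miR-335 is encoded in an intron of the imprinted gene MEST. It stood at 755, 1013, 432.6, 118 and 118 RPM in the immature animals and at 79.8, 35.7, 18.3 and 46.7 RPM in the mature animals. Every mature animal was below every immature one. It fell by 3.08 ± 0.69 (SE; adjusted p = 0.00145), and by 2.09 ± 0.31 after scaling (adjusted p = 0.000128).

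miR-424 and miR-503 belong to the miR-15 and miR-16 family, which represses cell-cycle genes, and are encoded together on the X chromosome. miR-424 was at 172 to 2214 RPM in the immature animals and at 64.4 to 231 RPM in the mature ones and fell by 2.53, and by 1.53 after scaling. miR-424* was at 583, 837, 368, 94.9 and 226 RPM and at 72.4, 83.4, 33.98 and 77.6 RPM and fell by 2.36 (adjusted p = 0.00862) and 1.37. Without the neonates the deposited calls of miR-424 (log2 fold change −1.81, adjusted p = 0.0539) and miR-424* (log2 fold change −1.64, adjusted p = 0.0909) were lost. miR-503 fell on the deposited scale only, by 1.79, and that call was lost without the animal of 16, 20, 215, 2570, 8104 or 9518 days (highest adjusted p, 0.248).

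The autosomal members of that family did not fall. miR-16 was at 153.7 to 679 RPM in the immature animals and at 113 to 700.2 RPM in the mature ones, with changes of −0.25 and 0.75 that missed the threshold and, scaled to listed reads, 0.98. miR-15a, miR-15b and miR-497 rose after scaling, by 1.06, 1.12 and 1.27. Of the 9 tested names 3 fell on the deposited scale, and 2 fell and 3 rose after scaling. The shares over all tested names were 26.4% lower on the deposited scale, and 19.6% lower and 23.6% higher after scaling. Leaving out the animal of 471 days gave 5 scaled rises, and leaving out that of 8104 days or of 20, 215, 2570 or 9518 days gave 1 or 2.

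miR-148a, known from liver and from its targeting of DNMT1, was at 1157, 1658, 747, 346 and 448 RPM in the immature animals. In the mature animals it was at 270, 168, 73.5 and 170.5 RPM. The stages did not overlap, and it fell by 2.25 ± 0.65 (SE; adjusted p = 0.00862) and by 1.25 ± 0.25 after scaling. Without the neonates the deposited call was lost (log2 fold change −1.65, adjusted p = 0.0846). Its relatives miR-152 (−1.05 and −0.05) and miR-148b (−0.89 and 0.10) were not called. miR-708, encoded in an intron of TENM4, was at 8.05 to 40.4 RPM and at 1.07 to 6.53 RPM and fell by 2.27 (adjusted p = 0.00341) and 1.47.

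Other lower calls were spread over families in which most members were not called. miR-10b, encoded in the HOXD cluster, was at 514.96 to 3905 RPM in the immature stage and at 127.9 to 606 RPM in the mature stage. It fell by 2.37 and by 1.36, and miR-125a-5p by 2.14 and 1.15. The deposited call of miR-10b was lost without the neonates (log2 fold change −1.47, adjusted p = 0.124). miR-99b fell after scaling only, by 0.61, a call lost without the animal of 16, 20, 215, 2355, 8104 or 9518 days. These made 2 deposited and 3 scaled calls among the 13 tested names of the miR-10, miR-99 and miR-125 families. Lower calls over all tested names were 26.4% and 19.6%. Leaving out the animal of 471 days gave 8 deposited calls, leaving out that of 739 or 2355 days gave 5, and leaving out that of 8104 days gave 1. After scaling 2 calls were left without the animal of 16, 20, 215, 8104 or 9518 days. miR-99a (−1.41 and −0.41) and miR-125b (−1.58 and −0.58) were not called.

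miR-130a, known from vascular and blood-forming cells, was at 237 to 953 RPM and at 48.6 to 286 RPM and fell by 2.32 and by 1.32, and its deposited call was lost without the neonates (log2 fold change −1.79, adjusted p = 0.0566). Its relative miR-130b was not called (−1.15 and −0.16). miR-26a, which targets EZH2, was at 1245 to 3957 RPM and at 288 to 1578 RPM and fell by 1.72 and by 0.72. The deposited call of miR-26a was lost without the animal of 16, 20, 215, 2570, 8104 or 9518 days (highest adjusted p, 0.137) and the scaled call without that of 8104 days (adjusted p = 0.0727). miR-26b was not called (−1.16 and −0.16).

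The miR-506 family lies on the X chromosome and is largely restricted to testis. All 12 of its names were tested. The sum was 1274 to 4649 RPM in the immature animals and 481 to 2078 RPM in the mature animals, with overlap. Reads shared by miR-513b and miR-513c count in it for both names. The median log2 fold change was −1.06 and, after scaling, −0.09, beside −0.76 and 0.10 over all names. Of the 12, 3 fell on the deposited scale and 0 after scaling by limma, beside 26.4% and 19.6% of all tested names. After scaling 2 had an unadjusted p under 0.05, edgeR with TMM called 0 and DESeq2 called 2. miR-510, the most abundant, was at 817 to 2583 RPM and at 273 to 1448 RPM and had changes of −1.09 (adjusted p = 0.166) and −0.09 (adjusted p = 0.815). miR-513b and miR-513c share their reads, so their deposited calls, both among the 3, are the same measurement. They fell by 1.95, a call lost without the animal of 16, 215, 8104 or 9518 days (highest adjusted p, 0.159). Each of these fits left 0 deposited calls in the family.

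**Figure D4:**
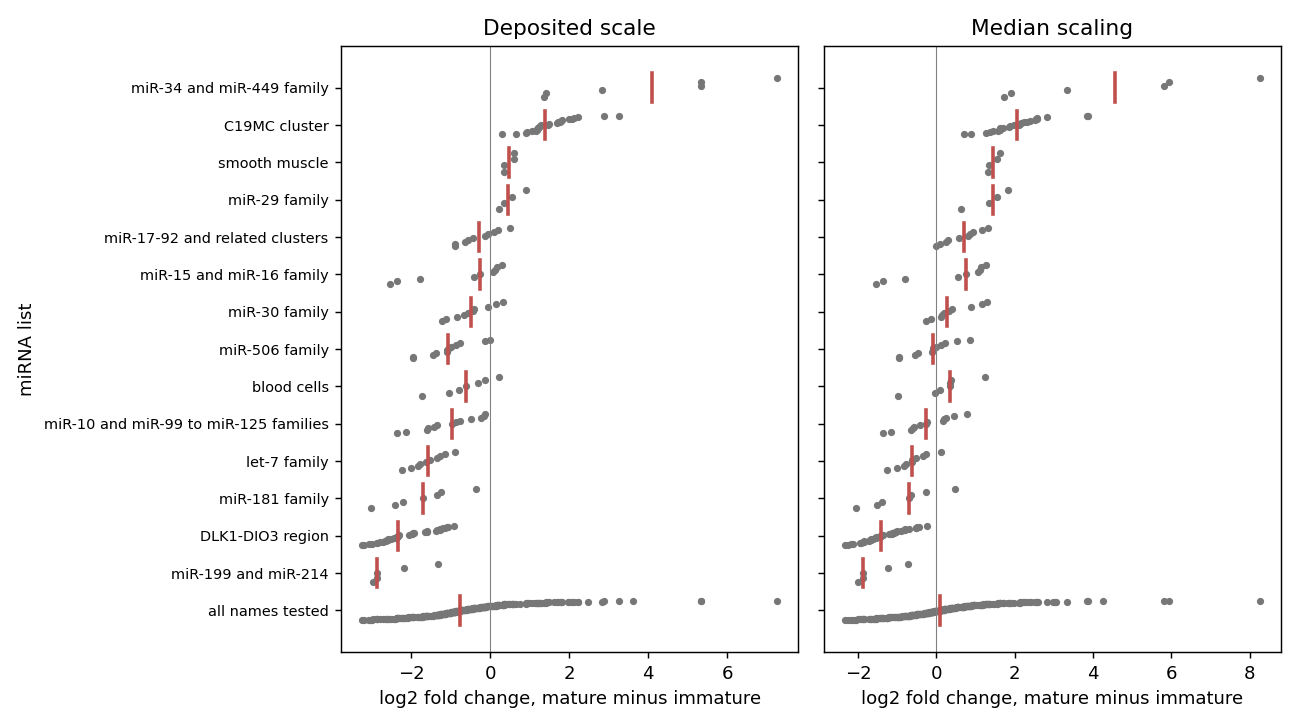
Log2 fold change (mature minus immature) of each tested name in 14 lists and over all tested names, on the deposited scale (left) and after median scaling (right), with 1 grey point a name and a red bar at each median. The miR-34 and miR-449 family and C19MC lie to the right on both panels, DLK1-DIO3 and miR-199 with miR-214 to the left, and the smooth muscle and miR-29 lists move from near 0 to medians of 1.46 and 1.45.

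After scaling 42 further names rose that were not called on the deposited scale, 37 of them with a positive deposited log2 fold change. miR-1, a miRNA of striated muscle, was at 2498, 3376, 1746, 621 and 577 RPM in the immature animals and at 7402, 1917, 1616 and 3858 RPM in the mature animals. These ranges overlapped, and the deposited change was 1.14 ± 0.65 (SE; adjusted p = 0.17). Without the neonates miR-1 was called on the deposited scale, with a change of 1.84 (limma, adjusted p = 0.0473). After scaling the immature animals ran from 615 to 1314 and the mature ones from 3223 to 5940, and miR-1 rose by 2.14 ± 0.37 (SE; adjusted p = 0.000359). miR-499-5p, from a myosin gene intron, rose by 1.19 after scaling, whereas miR-206 was not called (−0.62 and 0.05).

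miR-143 and miR-145 are encoded together and mark smooth muscle, and peritubular cells of the testis have smooth muscle features. miR-143 was at 4436, 9641, 3701, 801 and 1843 RPM in the immature animals and at 5953, 5039, 2230 and 6441 RPM in the mature animals. It overlapped on the deposited scale (log2 fold change 0.61, adjusted p = 0.481) and rose after scaling by 1.62 ± 0.34 (SE; adjusted p = 0.0016). All 4 names of miR-143 and miR-145 rose after scaling, beside 23.6% of all tested names. On the deposited scale 0 of them rose by limma, by edgeR or at an unadjusted p under 0.05. The call of miR-145 was lost without the animal of 2355 days (adjusted p = 0.0556).

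The miR-29 family represses collagen genes. miR-29a was at 2886, 2088, 3273, 1835 and 2843 RPM in the immature animals and at 6267, 3293, 1373 and 3760 RPM in the mature animals, with a change of 0.35 (adjusted p = 0.665). After scaling miR-29a rose by 1.35, miR-29c by 1.56 and miR-29b by 1.84. miR-30a, of a family abundant in kidney and many other tissues, rose after scaling by 1.16, with a deposited change of 0.16. Of 10 tested miR-30 names 3 rose after scaling, beside 23.6% of all tested names. On the deposited scale 0 of them were called by limma, by edgeR or at an unadjusted limma p under 0.05.

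The neuronal list behaved alike. miR-128, known from brain, was at 119, 248, 63.6, 29.1 and 41.3 RPM in the immature animals and at 167, 89.6, 57.5 and 136.1 RPM in the mature animals. It rose after scaling by 1.47 ± 0.29 (SE; adjusted p = 0.000881), against 0.48 on the deposited scale. miR-124, the most neuron-specific of the list, was at 2.86 to 20.2 RPM and at 7.95 to 43.6 RPM and rose after scaling by 1.87. Of 7 tested names 5 rose after scaling, beside 23.6% of all tested names. miR-129-5p alone rose on both scales, by 1.62 and 2.22, where 10.6% of all tested names rose on both. miR-129-5p passed the filter on low values only through the older animals, so the filter favoured a rise and the call is no separate support for one.

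**Figure D5:**
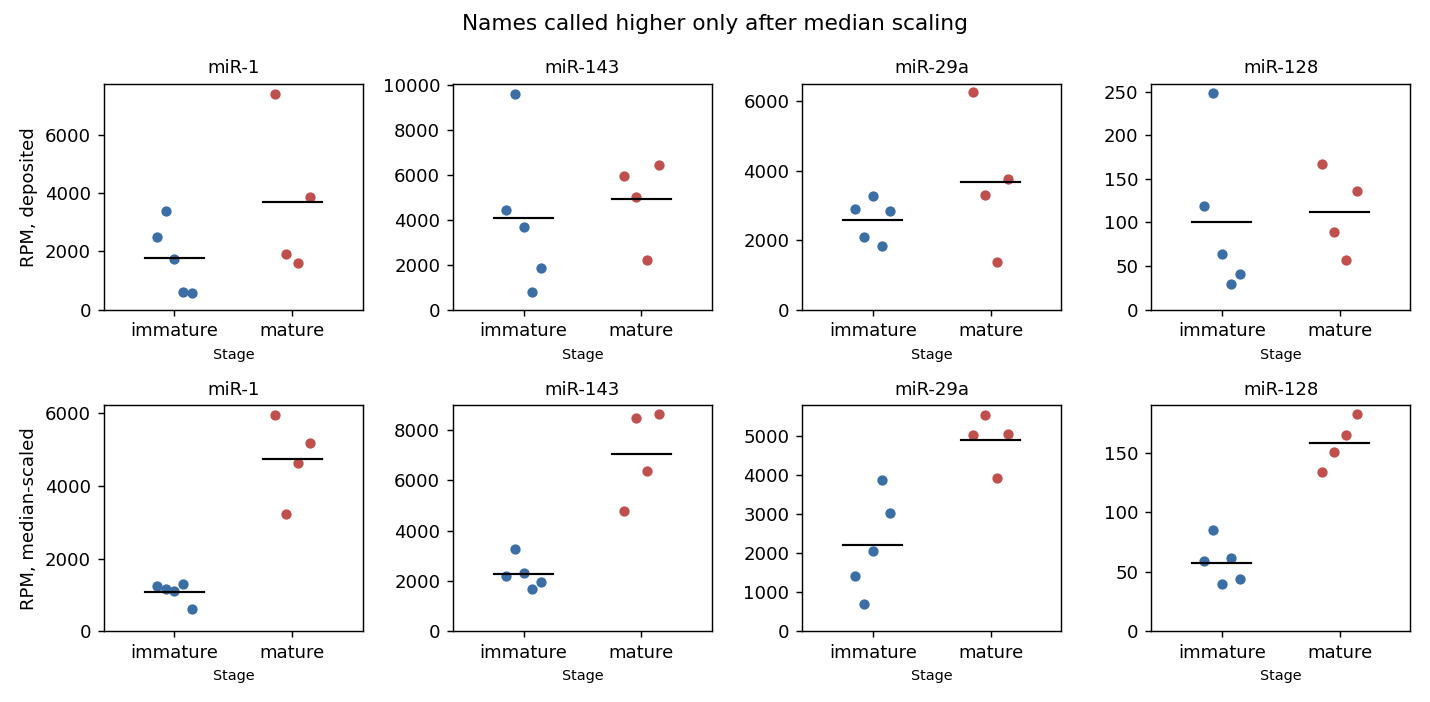
RPM (top) and median-scaled RPM (bottom) of miR-1, miR-143, miR-29a and miR-128 in the 5 immature animals (blue) and the 4 mature animals (red), 1 point an animal with black bars at the stage means and axes from 0. The stages overlap in every top panel and are separated in every bottom panel.

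Names of other cell types were read in the same way. Of 7 tested blood cell names miR-144* fell on the deposited scale, a call lost without the animal of 16, 8104 or 9518 days. After scaling 0 were called by limma, edgeR or DESeq2 and 2 had an unadjusted p under 0.05. Their summed RPM was 47.7 to 544.35 in the immature and 91.3 to 225 in the mature animals. miR-451 of red cells was at 33.4 to 369.5 RPM and at 23.7 to 153.45 RPM. The endothelial miR-126 (−0.38 and 0.55) and miR-126* (0.05 and 0.96) were not called. The liver miRNA miR-122 was at 253, 41.9, 104, 25.3 and 13.1 RPM in the immature animals and at 20.2, 18.04, 6.05 and 20.2 RPM in the mature animals. It fell on the deposited scale by 1.76 (adjusted p = 0.0498), a call lost without any of 6 animals (16, 215, 2355, 2570, 8104 or 9518 days, highest adjusted p 0.207). Whether these cell types had a part in any other result was not tested.

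The cell-cycle clusters related to miR-17-92 gave 0 deposited calls among 10 tested names, by limma, edgeR or an unadjusted p under 0.05. They gave 4 rises after scaling, where 23.6% of all tested names rose. miR-92a was at 25.7 to 139.9 RPM in the immature animals and at 19.7 to 114 RPM in the mature ones. Its change was −0.05 on the deposited scale, 0.94 after scaling and 1.18 scaled to listed reads, and the scaled call was lost without the animal of 9518 days, which left 2 of the 4 rises. miR-25 was not called (−0.42 and 0.58) while its other arm, miR-25*, rose after scaling by 1.18. The miR-23, miR-24 and miR-27 names (8 tested) and miR-221 and miR-222 (3 tested) had 0 calls on either scale by limma, also at an unadjusted p under 0.05, while edgeR on library totals called 1 of the miR-221 and miR-222 names lower. Their median changes were −0.77 and 0.19, and −1.22 and −0.22.

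Position on the chromosome was taken from RefSeq miRNA genes (assembly T2T-MMU8v2.0), to which 90.5% of the 538 names matched, and neighbours within 10 kb were joined. Of the 11 groups with at least 4 tested names, the block from MIR450B to MIR424 on the X chromosome had 6 of 7 names lower on the deposited scale and 4 after scaling. Its medians were −1.79 and −0.94, and over all tested names 26.4% and 19.6% fell. The 2 blocks of the DLK1-DIO3 region, MIR493 to MIR136 and MIR379 to MIR656, had 7 of 8 and 27 of 31 names lower on the deposited scale. Their medians there were −2.60 and −2.06. The block from MIR379 to MIR656 included both arms of miR-369, which the list of the region left out. The main C19MC block, MIR512 to MIR517B, had 18 of 21 names higher on the deposited scale, beside 10.6% of all tested names. However, 12 of the 21 passed the filter on low values only through the older animals, so the filter favoured their rise. Another X-linked block, MIR532 to MIR502, had 0 deposited calls among 8 names and 2 rises after scaling, where 23.6% of all tested names rose. Neighbours made as 1 transcript are not independent.

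For 69 hairpins both arms were tested. The sign of the log2 fold change was the same for the arms of 59 of them on the deposited scale and of 55 after scaling. Both arms were called in the same direction for 22 and 24 hairpins, and in opposite directions for 0. The median gap between arms was 0.43 on the log2 scale and 13 gaps were over 1. The arms miR-34c-5p (7.27) and miR-34c-3p (1.37), and miR-125a-5p (−2.14) and miR-125a-3p (−0.24), were among them, each pair with a rare arm whose change the added 1 RPM understates.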

How the data were processed

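Small RNA libraries of whole rhesus macaque testis were sequenced on the Illumina Genome Analyzer. The deposited table holds RPM values per miRNA name, made by the authors from the library reads. CASAVA 1.4 and Bowtie were used, per the submitters' processing notes. No genome build, miRNA annotation, alignment setting or definition of the RPM total is given in the sources used. Whole reads were recovered from the RPM steps for 100% of values.

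The 2 technical libraries of the animal of 16 days, and those of the peripubertal animal of 1487 days, were combined by their log mean. Values were tested as log2(RPM + 1) with limma 3.58.1 (trend and robust options) in R 4.3.3, in 1 model of the 12 animals in 3 stages, with the contrast mature minus immature. Names with at least 1 RPM in at least 3 animals entered, and p-values were adjusted by Benjamini-Hochberg over all of them at a threshold of 0.05. Median scaling divided each library by the median RPM of the names seen in every library. The result was multiplied by the geometric mean of these medians over the libraries. The script was tested on simulated data.

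Alternatives were pseudocounts of 0.5 and 5, other filters, count tests on the recovered reads with DESeq2 1.42.0 and edgeR 4.0.16, scaling to listed reads, each library set alone and each animal left out. Leaving out the neonates, or the animals of 471 and 8104 days, was chosen after seeing the data. The members and lists were chosen with earlier results of these data known. Names described singly were called on both scales with at least 10 RPM and no overlap (the first 12 by size in each direction), or were the 3 most abundant of a list, the 5 most abundant of a stage, or the 5 most abundant called on 1 scale only. Other names given with values were chosen after their values were seen. Grouping by targeting sequence was planned and not done here. Read totals per library set the precision of low names.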

Additional observations from a re-analysis of the deposited data

Results flagged for a closer look

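In 174 groups of 4 or 5 animals (87 named miRNAs in 2 stages, deposited scale), 2 held an animal far from the others by Dixon's criterion, and chance gives about 1 in 20 groups. miR-424*, from the X-linked miR-424 hairpin, was at 33.983 RPM in the mature animal of 8104 days, while the other mature animals lay between 72.4 and 83.4 RPM. miR-122, the liver miRNA, was at 6.0493 RPM in the same animal, while the others lay between 18.04 and 20.2 RPM. That animal had the lowest share of listed reads, 9.00%. The part of this share in either value was not tested.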

How the results depend on the processing

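No paired analysis was possible because the replicate numbers in the labels name technical libraries of 1 animal, and mature and immature animals share none. Counts of calls follow as percentages of the names tested, from 10.6% higher and 26.4% lower on the deposited scale and 23.6% and 19.6% after scaling. Scaling to listed reads gave 30.1% and 15.8%. With a mean of at least 10 RPM, which left 164 names, the deposited shares were 3.66% and 33.5% (6 and 55 names) and the scaled higher share 20.7% (34 names). Within library set 1 they were 3.73% and 0% deposited and 9.63% and 9.94% scaled, and within set 2 the lower shares were 12.4% deposited and 11.5% scaled, with fewer animals. Without the neonates the lower shares were 5.28% and 12.7%. Leaving out 1 animal gave 8.7% to 11.5% higher and 9.32% to 39.8% lower names on the deposited scale, and 19.6% to 27% and 14.9% to 20.2% after scaling. The difference in listed share ran from −34.7 to −18.9 percentage points without 1 animal, and was −34.2 with all names summed. Scaled to listed reads, the changes of miR-16 (0.98), miR-25 (0.81), miR-92a (1.18), miR-27b (0.64) and miR-191 (1.15) became positive, and the cause was not tested. Of 4149 recomputed values of the named miRNAs, 3795 kept their side of the threshold, 102 passed it newly, 247 no longer passed and 5 reversed. Among those that kept it, 2.94% of all recomputed values changed sign with no call either way. No call was shared in opposite directions. Depth limits names near 1 RPM, where 1 read is 0.178 to 0.297 RPM.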

Other observations

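Star names, from the usually rarer arm, were 57 of the tested names. Of these 4 rose and 15 fell on the deposited scale, and 15 rose and 8 fell after scaling, with median changes of −0.67 and 0.19. The other 265 names gave 30 higher and 70 lower, and 61 and 55 after scaling. Over all tested names 10.6% rose and 26.4% fell, and 23.6% and 19.6% did so after scaling.

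Among names called on 1 scale only, miR-191, a widely expressed miRNA, was at 792 to 1891 RPM in the immature animals and at 766 to 3434 RPM in the mature ones. It rose after scaling by 0.92 (limma, adjusted p = 0.0404), against −0.08 on the deposited scale, and that call was lost without the animal of 16, 20, 215, 2355 or 8104 days. miR-664*, made from a small nucleolar RNA gene, was at 84.7 to 191 RPM and at 23.5 to 108 RPM and fell on the deposited scale only, by 1.57 (limma, adjusted p = 0.0421). Its call was lost without the animal of 16, 20, 215, 739, 2570, 8104 or 9518 days. miR-132*, of a hairpin known from neurons, was at 0.192 to 3.43 RPM and at 1.75 to 2.61 RPM and rose after scaling by 1.14, a call lost without the animal of 8104 days. miR-182, of the sensory miR-183 cluster, was not called (−0.70 and 0.01).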
